A study of Mus musculus with 6 samples.

Results

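The genes described here encode membrane carriers of sugars, amino acids, peptides and monocarboxylates. They were taken by symbol, as every row of the count table named for the families Slc1, Slc2, Slc3, Slc5, Slc6, Slc7, Slc15, Slc16, Slc36, Slc38 and Slc43, and they number 101 of 23845 genes in 11 families. Symbols with a further letter after the number, such as Slc5a4a and Slc6a20a, fall outside that rule. RNA was sequenced from mouse intestinal epithelial cells in 3 groups of 2 libraries. The EYFP group carries the genotype Neurog3+/+EYFP, with both Neurog3 alleles kept beside an EYFP reporter, on a mixed C57BL6 and CD1 strain background. The EGFP group carries Neurog3+/-EGFP, with 1 Neurog3 allele and an EGFP reporter, on C57BL6. The WT group is wild-type epithelium of C57BL6 mice, and its titles point to duodenum. Cells expressing Neurog3, the transcription factor that starts enteroendocrine differentiation, were sorted by FACS in the reporter groups to ask how gene dosage affects these progenitors. The sources used here do not give the age, the gates, the gut segment that was sorted, or whether WT cells were sorted. They also do not say that the 2 libraries of a group came from separate animals, so p-values measure only the spread between these libraries.

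Absorptive enterocytes take up nutrients across the brush border with carriers driven by sodium or protons, and release them to the blood through other carriers on the basolateral side. Dividing cells express further carriers for glucose, glutamine, neutral amino acids and lactate, and neurons and glia use members of the same families to clear transmitters. Enteroendocrine cells, which release gut hormones, use some of the absorptive carriers to sense nutrients in the lumen.

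Estimated counts summed to 12415664 and 10173137 in EYFP libraries, 7938358 and 11714961 in EGFP libraries, and 13674214 and 20589683 in WT libraries. Levels are given as CPM, the counts scaled to a common library size by the trimmed mean of M-values. Neurog3 itself had 563 and 348 CPM in EYFP cells, 120 and 179 CPM in EGFP cells, and 6 and 6.39 CPM in WT epithelium. Enterocyte markers, 12 genes such as Alpi, Apoa1 and Fabp1, summed to between 1777 and 2580 CPM in EYFP libraries, between 2123 and 2844 in EGFP libraries, and between 31848 and 47066 in WT libraries. Enteroendocrine markers, 14 genes such as Chga and Neurod1, summed to at least 70200 CPM in EYFP libraries, at least 16534 in EGFP libraries, and at most 928 in WT libraries. No marker of either list was at 0 in both libraries of a group. Xist, the transcript of the inactive X chromosome, had at most 2.38 CPM in EYFP libraries, at least 966 in EGFP libraries, and 1.15 and 726 in WT libraries. Ddx3y, a Y chromosome gene, had 37.3 and 39.3 CPM in EYFP libraries and 0 in EGFP libraries. Its level was 62.4 and 0.101 CPM in WT replicates 1 and 2. Reporter line, strain background and sex, as read from Xist and Ddx3y, therefore differ together between EYFP and EGFP cells. They cannot be told apart from Neurog3 dosage. Tissue, sorting and reporter cannot be told apart in the comparisons with WT. Strain background also differs between EYFP cells and WT and cannot be told apart from these.

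Summed over the 101 genes, transporter transcripts reached 2516 and 2750 CPM in EYFP cells, 2698 and 2737 CPM in EGFP cells, and 7071 and 13686 CPM in WT epithelium. The sorted groups lay close together and well below both WT libraries, which were themselves far apart. Of the 101 genes, 72 passed the filter on low counts. The other 29 reached at most 2 CPM in any library, and 3 of them, Slc1a6, Slc15a5 and Slc36a3, had no count at all. In bulk RNA, fewer cells of a type and less RNA per cell cannot be told apart.

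**Figure D1:**
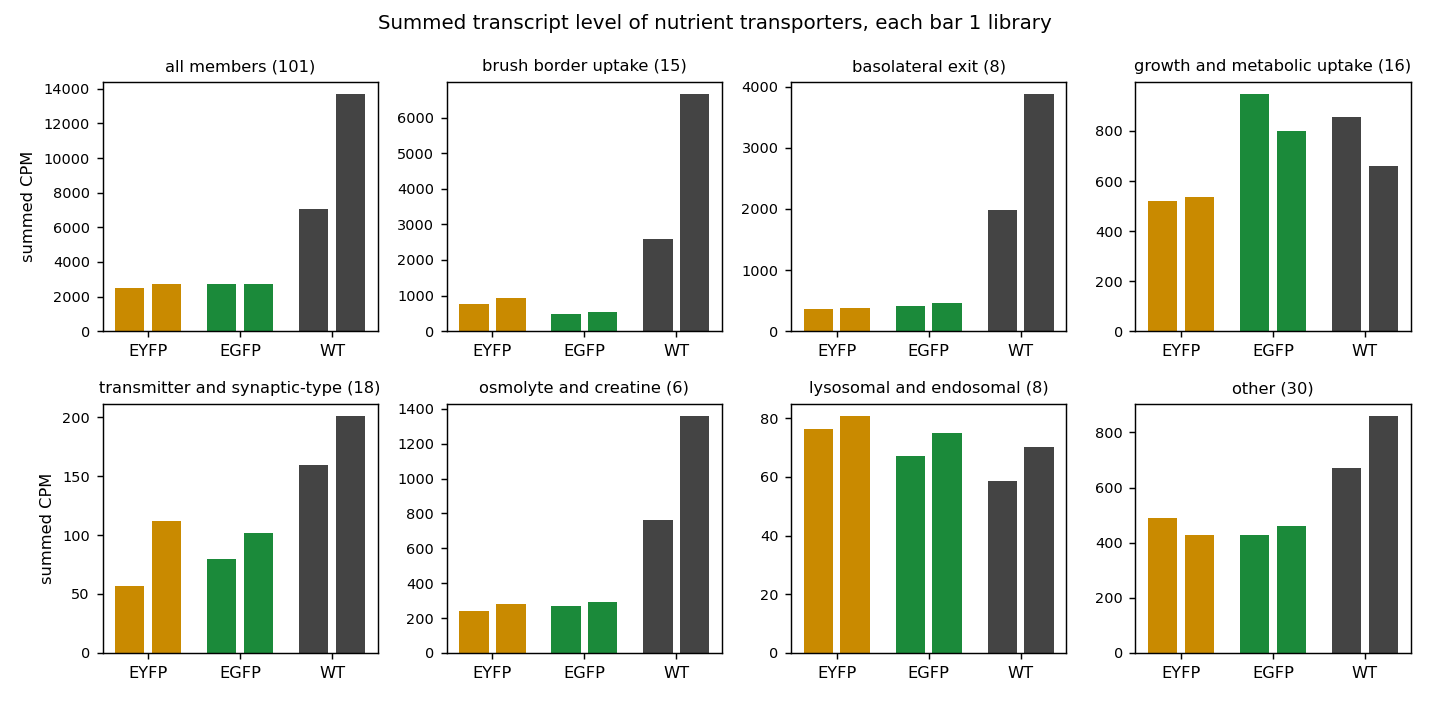
Summed CPM (linear axis) of transporter genes in each library, for all 101 members and for each role list, with the number of genes in parentheses; each bar is 1 library, EYFP, EGFP and WT from left to right. Brush border carriers sum to 765 and 939 CPM in EYFP cells, 495 and 548 in EGFP cells, and 2576 and 6657 in WT epithelium, while growth carriers are lowest in EYFP cells.

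Between EYFP and EGFP cells, 6 of the 72 transporter genes rose and 16 fell at an adjusted p under 0.05, and 50 did not pass. Across all 13935 genes tested, 16.8% rose and 19.4% fell (36.2% in either direction), against 8.33% and 22.2% of the transporters, whose median log2 fold change was -0.09. In EYFP cells against WT, 12 transporters rose and 34 fell (16.7% and 47.2%), where 27.1% and 33.5% of all genes did and 60.6% passed in either direction. In EGFP cells against WT, 19 rose and 32 fell (26.4% and 44.4%), where 19.6% and 21.9% of all genes did and 41.5% passed in either direction. The median log2 fold change of the transporters against WT was -0.78 in EYFP cells and -0.61 in EGFP cells, beside medians of -0.12 and 0.00 over all genes. Both comparisons with WT use the same WT libraries. Leaving out 1 library moved the EYFP over EGFP counts most, to 2 higher without EYFP replicate 1 or without EGFP replicate 1, and to 10 lower without EGFP replicate 1 or without EGFP replicate 2.

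**Figure D2:**
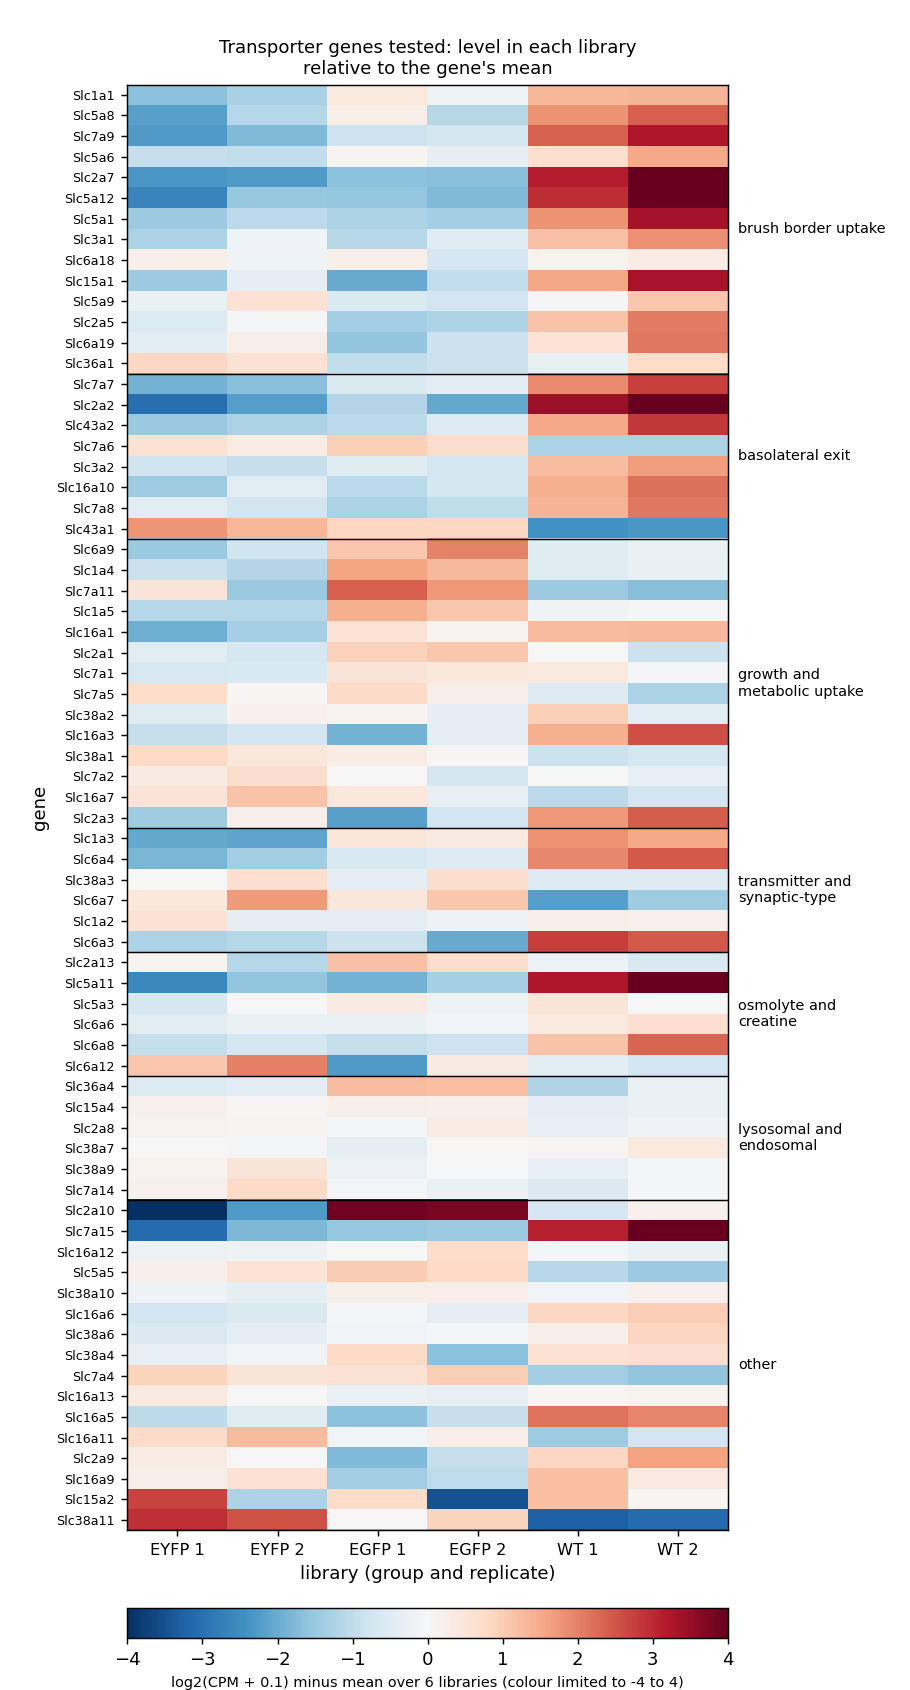
Level of 70 of the 72 transporter genes that passed the filter, in each library, as log2(CPM + 0.1) minus the gene's mean over the 6 libraries; colour runs from blue (below the mean) to red (above) and stops at -4 and 4. Genes are grouped by role and sorted within a role by their EYFP over EGFP log2 fold change; most brush border and basolateral genes are red in both WT libraries, and Slc2a10 and Slc38a11 differ most between EYFP and EGFP cells.

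The carriers that take nutrients up across the brush border were lower in both sorted groups than in WT. Of 15 such genes 14 were tested. Against WT 10 fell in EYFP cells and 12 fell in EGFP cells, and none rose. Over all genes 33.5% fell in EYFP cells and 21.9% fell in EGFP cells against WT. Between EYFP and EGFP cells 1 rose, 2 fell and 11 did not pass, where 16.8% of all genes rose and 19.4% fell. The list's median log2 fold change was -2.49 in EYFP and -2.62 in EGFP cells against WT, and 0.10 in EYFP over EGFP cells.

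Slc5a1, which couples glucose uptake to sodium, had 125 and 165 CPM in EYFP cells, 143 and 135 CPM in EGFP cells, and 1206 and 3488 CPM in WT epithelium. The sorted groups overlapped with each other and lay far below both WT libraries. It was 16.2-fold lower in EYFP cells (log2 fold change -4.02 ± 0.53 (SE), adjusted p = 0.00083) and 16.9-fold lower in EGFP cells (-4.08 ± 0.53, adjusted p = 0.0014). The EYFP over EGFP log2 fold change was 0.06 ± 0.47 (adjusted p = 0.94). Slc2a5, the fructose carrier, had 41.4 and 58.9 CPM in EYFP cells, 23.5 and 26 CPM in EGFP cells, and 134 and 256 CPM in WT epithelium. The 3 groups did not overlap. Against WT it fell by 1.96 ± 0.33 on the log2 scale in EYFP cells and fell by 2.98 ± 0.35 in EGFP cells (adjusted p = 0.0025 and 0.00094). The EYFP over EGFP log2 fold change of 1.02 ± 0.33 missed the threshold (adjusted p = 0.056) and passed it with DESeq2's size factors (adjusted p = 0.046). Slc2a7, a further hexose carrier, was low in both sorted groups, with 0.564 and 0.589 CPM in EYFP cells and 0.965 and 0.93 CPM in EGFP cells, against 29 and 90.6 CPM in WT epithelium. Its log2 fold change against WT was -6.68 ± 0.71 in EYFP cells and -5.97 ± 0.69 in EGFP cells (adjusted p = 0.00039 and 0.001).

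Slc15a1, the proton-coupled carrier of di- and tripeptides, had 27 and 56.2 CPM in EYFP cells, 18.2 and 37.4 CPM in EGFP cells, and 218 and 729 CPM in WT epithelium. The 2 libraries of each group stood far apart, and WT was above both sorted groups in every library. It fell by 3.51 ± 0.81 in EYFP cells and fell by 4.08 ± 0.84 in EGFP cells on the log2 scale (adjusted p = 0.018 for both). The call against WT was lost without EYFP replicate 1 (adjusted p = 0.088) or EYFP replicate 2 (0.054) in EYFP cells, and without EGFP replicate 1 (0.071) or EGFP replicate 2 (0.065) in EGFP cells. With no filter on low counts neither Slc15a1 call passed (adjusted p = 0.067 in EYFP cells and 0.07 in EGFP cells). Slc6a19, the sodium-coupled carrier of neutral amino acids, had 121 and 192 CPM in EYFP cells, 55 and 90.2 CPM in EGFP cells, and 238 and 701 CPM in WT epithelium. In EGFP cells it fell by 2.69 ± 0.61 against WT (adjusted p = 0.019), but fell by 1.71 without WT replicate 2, and it did not pass without EGFP replicate 1 (adjusted p = 0.081), without EGFP replicate 2 (0.058) or with no filter on low counts (0.092). The difference between EYFP cells and WT was -1.59 ± 0.58 (adjusted p = 0.062) and passed without WT replicate 1 (-2.17, adjusted p = 0.0064). An antisense gene at the same locus, Slc6a19os, had 3.66 and 4.21 CPM in EYFP cells, 1.21 and 1.52 in EGFP cells, and 0.25 and 0.543 in WT epithelium; the strand setting of the counting is not known, so reads of the pair cannot be told apart.

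Cystine and dibasic amino acids enter through a pair formed by Slc3a1, the heavy subunit, and Slc7a9, the light subunit that carries the substrate. Slc3a1 had 32 and 68.9 CPM in EYFP cells, 35.9 and 54.5 CPM in EGFP cells, and 174 and 273 CPM in WT epithelium. Slc7a9 had 6.77 and 9.59 CPM in EYFP cells, 18.5 and 20.4 CPM in EGFP cells, and 171 and 311 CPM in WT epithelium. The heavy subunit thus overlapped between the sorted groups, while the light subunit was lower in both EYFP libraries than in both EGFP libraries. Slc3a1 fell by 2.15 ± 0.44 in EYFP cells and fell by 2.31 ± 0.44 in EGFP cells against WT (adjusted p = 0.0066 and 0.0083), and the EGFP call was lost without EGFP replicate 1 (0.057) or with no filter on low counts (0.055). Slc7a9 fell by 4.88 ± 0.35 in EYFP cells and fell by 3.63 ± 0.33 in EGFP cells against WT (adjusted p = 5e-05 and 0.00027). Between EYFP and EGFP cells Slc7a9 fell by 1.25 ± 0.33 (adjusted p = 0.025), a call lost without EYFP replicate 1 (0.12), EGFP replicate 1 (0.086) or EGFP replicate 2 (0.1).

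Slc1a1, which takes up glutamate and aspartate, had 11.7 and 15.1 CPM in EYFP cells, 48.6 and 33.7 CPM in EGFP cells, and 92.8 and 96.3 CPM in WT epithelium. The groups stood in 3 separate steps, lowest in EYFP cells. It fell by 1.62 ± 0.22 between EYFP and EGFP cells (adjusted p = 0.0014), fell by 2.82 ± 0.22 in EYFP cells against WT (3e-05) and fell by 1.20 ± 0.21 in EGFP cells against WT (0.0025). Slc36a1, a proton-coupled carrier of small amino acids found at the brush border and on lysosomes, went the other way between the sorted groups, with 352 and 296 CPM in EYFP cells, 101 and 109 CPM in EGFP cells, and 161 and 334 CPM in WT epithelium. It was 3.08-fold higher in EYFP than in EGFP cells (log2 fold change 1.62 ± 0.33, adjusted p = 0.011), a call that narrowly missed the threshold without EYFP replicate 1 (0.051), EGFP replicate 1 (0.056) or EGFP replicate 2 (0.053). EYFP cells and WT overlapped (0.39 ± 0.32, adjusted p = 0.33), although EYFP cells were higher without WT replicate 2 (adjusted p = 0.0031). In EGFP cells against WT it fell by 1.24 ± 0.33 (adjusted p = 0.023) and fell by 0.62 without WT replicate 2, and it did not pass without EGFP replicate 1 (0.12) or EGFP replicate 2 (0.093). The overlapping gene Slc36a1os stayed between 3.21 and 4.31 CPM in every library. Slc5a12, a sodium-coupled lactate carrier, had 1.61 and 3.62 CPM in EYFP cells, 3.49 and 3.04 CPM in EGFP cells, and 82.4 and 237 CPM in WT epithelium, which is a log2 fold change of -5.95 ± 0.71 in EYFP cells and -5.62 ± 0.70 in EGFP cells (adjusted p = 0.0012 and 0.0024).

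**Figure D3:**
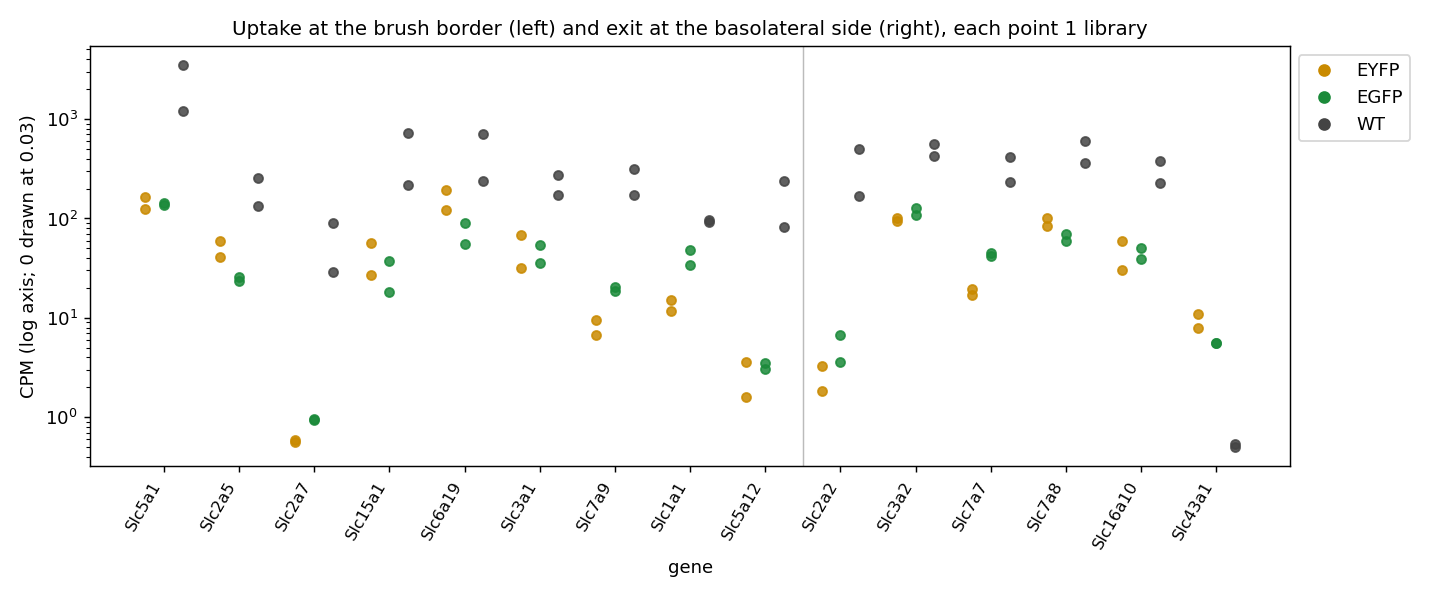
CPM (log axis) of brush border uptake genes (left of the line) and basolateral exit genes (right); each point is 1 library, with EYFP, EGFP and WT from left to right for each gene. WT libraries lie above both sorted groups for every gene shown except Slc43a1, where WT has 0.5 and 0.543 CPM.

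The brush border genes moved with markers of other features of the libraries. All 12 enterocyte markers were lower against WT in both sorted groups. Of 10 brush border digestive enzymes all fell against WT in both groups, with a median log2 fold change of -4.74 in EYFP cells and -4.45 in EGFP cells. Lct, the lactase of the brush border, had 21.1 and 49.8 CPM in EYFP cells, 32 and 49.7 CPM in EGFP cells, and 1764 and 3838 CPM in WT epithelium (log2 fold change -6.10 ± 0.65 in EGFP cells, adjusted p = 0.00073). Ace, a brush border peptidase, had 16.6 and 40.1 CPM in EYFP cells, 55.5 and 53.1 CPM in EGFP cells, and 1374 and 3702 CPM in WT epithelium (-6.49 ± 0.71 in EYFP cells, adjusted p = 0.00045). Only Enpep, a further peptidase, passed between EYFP and EGFP cells (-1.01 ± 0.28, adjusted p = 0.025), and that call was lost without EYFP replicate 1 (0.15), EGFP replicate 1 (0.13) or EGFP replicate 2 (0.095). Markers of proximal small intestine summed to 322 and 451 CPM in EYFP cells, 362 and 400 in EGFP cells, and 4400 and 5312 in WT epithelium. Fabp1, also among the enterocyte markers, gave most of the WT sum (3256 and 4196 CPM). Of 9 tested proximal markers 6 fell in EYFP cells and 5 fell in EGFP cells against WT. Pdx1, Onecut2 and Slc40a1 passed in neither comparison with WT. Distal markers summed to 60.9 and 82.5 CPM in EYFP cells, 218 and 196 in EGFP cells, and 785 and 1380 in WT epithelium. Of the distal markers Hoxd10 and Hoxa13 were at 0 in every library, and Hoxb13 was at 0 in EYFP and EGFP cells. The part of cell makeup and of gut segment in these differences was not tested.

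The WT libraries also differed from each other, including in the levels of Xist and Ddx3y given above. The part of sex in the transporter levels was not tested. All 14 tested brush border genes were higher in WT replicate 2 than in WT replicate 1, 7 of them more than 2-fold, and 52 of the 72 transporters (72.2%) were higher in that library, against 57.7% of all genes. Slc5a1, for example, averaged 2347 ± 1610 CPM in WT epithelium (SD, n = 2), against 145 ± 28.1 CPM in EYFP cells and 139 ± 5.71 CPM in EGFP cells.

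Carriers that release nutrients on the basolateral side split in 2 directions against WT. All 8 genes were tested. Against WT 6 fell and 2 rose in EYFP cells, where 33.5% of all genes fell and 27.1% rose. In EGFP cells 6 fell and 2 rose, where 21.9% of all genes fell and 19.6% rose. Between EYFP and EGFP cells 1 fell and 7 did not pass, where 19.4% of all genes fell. The median log2 fold change was -2.56 in EYFP and -2.82 in EGFP cells against WT, and -0.32 in EYFP over EGFP cells.

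Slc2a2, the glucose and fructose exit carrier, had 1.83 and 3.28 CPM in EYFP cells, 6.75 and 3.64 CPM in EGFP cells, and 170 and 503 CPM in WT epithelium. It was low in both sorted groups, 133-fold lower in EYFP cells (log2 fold change -7.05 ± 0.78, adjusted p = 0.00096) and 66.2-fold lower in EGFP cells (-6.05 ± 0.74, adjusted p = 0.0024) than in WT. Slc3a2, the heavy subunit shared by several amino acid exchangers, had 101 and 94.2 CPM in EYFP cells, 126 and 109 CPM in EGFP cells, and 421 and 561 CPM in WT epithelium. It stayed well expressed in every library and fell by 2.33 ± 0.19 in EYFP cells and fell by 2.06 ± 0.19 in EGFP cells against WT (adjusted p = 3.6e-05 and 0.00014). Slc7a7, a light subunit of Slc3a2 that exports dibasic amino acids, had 16.9 and 19.4 CPM in EYFP cells, 41.8 and 45.4 CPM in EGFP cells, and 232 and 417 CPM in WT epithelium. Like the dibasic uptake subunit Slc7a9, it was lower in EYFP than in EGFP cells (-1.26 ± 0.28, adjusted p = 0.012), and that call was lost without EYFP replicate 1 (0.073), EGFP replicate 1 (0.051) or EGFP replicate 2 (0.056). Against WT it fell by 4.16 ± 0.30 in EYFP cells and fell by 2.90 ± 0.28 in EGFP cells (adjusted p = 3.6e-05 and 0.00028).

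Slc7a8, a light subunit for neutral amino acids, had 102 and 84 CPM in EYFP cells, 58.9 and 70.3 CPM in EGFP cells, and 361 and 605 CPM in WT epithelium. It fell by 2.37 ± 0.27 in EYFP cells and fell by 2.90 ± 0.27 in EGFP cells against WT (adjusted p = 0.00022 and 0.00021), and the EYFP over EGFP difference was 0.53 ± 0.26 (0.15). Slc16a10, which carries aromatic amino acids, had 30.6 and 59.3 CPM in EYFP cells, 38.7 and 50.7 CPM in EGFP cells, and 225 and 378 CPM in WT epithelium, and had a log2 fold change of -2.75 ± 0.40 in each sorted group against WT (adjusted p = 0.0015 in EYFP and 0.0026 in EGFP cells). The 2 genes that rose were Slc43a1, a facilitative carrier of large neutral amino acids, and Slc7a6, a light subunit of Slc3a2. Slc43a1 had 10.9 and 7.91 CPM in EYFP cells, 5.55 and 5.58 CPM in EGFP cells, and 0.5 and 0.543 CPM in WT epithelium. It was 17.6-fold higher in EYFP cells (4.14 ± 0.37, adjusted p = 5.9e-05) and 10.5-fold higher in EGFP cells (3.39 ± 0.38, adjusted p = 0.00034) than in WT. Slc7a6, named here after its values were seen, had 33.3 and 27.1 CPM in EYFP cells, 42.5 and 35.9 CPM in EGFP cells, and 9.08 and 8.99 CPM in WT epithelium (1.74 ± 0.19 and 2.11 ± 0.19 against WT, adjusted p = 0.00014 for both). Its overlapping neighbour Slc7a6os had between 35.8 and 41.9 CPM in every library.

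Among carriers tied to growth and metabolism, 7 of 14 tested genes were lower in EYFP than in EGFP cells, none was higher and 7 did not pass, where 19.4% of all genes were lower and 36.2% passed in either direction. The list's median log2 fold change was -0.59 in EYFP over EGFP cells, -0.59 in EYFP cells against WT and 1.0 in EGFP cells against WT. Against WT, 3 rose and 6 fell in EYFP cells (21.4% and 42.9%), where 27.1% of all genes rose and 33.5% fell. In EGFP cells 7 rose and 3 fell against WT (50% and 21.4%), where 19.6% of all genes rose and 21.9% fell. Of the 16 genes in the list, Slc38a5 and Slc43a3 were not tested.

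Slc1a5, the main glutamine carrier of dividing cells, had 39.3 and 39.2 CPM in EYFP cells, 230 and 183 CPM in EGFP cells, and 77.6 and 81.1 CPM in WT epithelium. EGFP cells were above WT and EYFP cells were below it, with no overlap between any groups. It was 5.26-fold lower in EYFP than in EGFP cells (log2 fold change -2.39 ± 0.16, adjusted p = 0.00018), fell by 1.02 ± 0.15 in EYFP cells against WT (0.00072) and rose by 1.38 ± 0.15 in EGFP cells against WT (0.00031). Slc1a4, its paralog for alanine, serine and cysteine, had 5.22 and 4.29 CPM in EYFP cells, 29.4 and 24.5 CPM in EGFP cells, and 7 and 7.96 CPM in WT epithelium. Its order of groups was the same, with -2.50 ± 0.23 in EYFP over EGFP cells (adjusted p = 0.00044) and 1.85 ± 0.22 in EGFP cells against WT (0.0005). The difference between EYFP cells and WT was small (-0.65 ± 0.23, adjusted p = 0.04), and its call was lost with DESeq2's size factors (0.07), with DESeq2's Wald test (0.13), in a fit of the 4 libraries alone (0.18) and without any single library (0.051 to 0.19).

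Slc6a9, a sodium-coupled glycine carrier, had 2.89 and 4.71 CPM in EYFP cells, 17.5 and 33.1 CPM in EGFP cells, and 5.91 and 6.87 CPM in WT epithelium. Both EGFP libraries were above all others. It fell by 2.75 ± 0.38 between EYFP and EGFP cells (adjusted p = 0.0018) and rose by 1.99 ± 0.36 in EGFP cells against WT (0.0037). Slc2a1, the widespread glucose carrier, had 19.9 and 16.9 CPM in EYFP cells, 51 and 57 CPM in EGFP cells, and 26.6 and 15 CPM in WT epithelium. It fell by 1.55 ± 0.27 between EYFP and EGFP cells (adjusted p = 0.0046) and rose by 1.38 ± 0.27 in EGFP cells against WT (0.005), while EYFP cells and WT overlapped (-0.17 ± 0.27, adjusted p = 0.61). Slc16a1, which moves lactate and pyruvate with protons, had 19.1 and 29.3 CPM in EYFP cells, 107 and 81.3 CPM in EGFP cells, and 177 and 182 CPM in WT epithelium. It fell by 1.96 ± 0.23 between EYFP and EGFP cells (adjusted p = 0.00099), fell by 2.89 ± 0.24 in EYFP cells against WT (4.3e-05) and fell by 0.93 ± 0.22 in EGFP cells against WT (0.011), the last lost without EGFP replicate 2 (0.081) or WT replicate 2 (0.057). Slc7a1, which takes up arginine and lysine, was named after its values were seen and had 65.9 and 66.6 CPM in EYFP cells, 147 and 137 CPM in EGFP cells, and 133 and 98.1 CPM in WT epithelium (EYFP over EGFP -1.10 ± 0.17, adjusted p = 0.0025).

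Slc7a5, the light subunit that exchanges leucine and other large neutral amino acids, did not follow these carriers. It had 47.1 and 29.2 CPM in EYFP cells, 47.7 and 33.5 CPM in EGFP cells, and 19.7 and 11.6 CPM in WT epithelium. The sorted groups overlapped (-0.08 ± 0.34, adjusted p = 0.87), and both were above WT, 2.46-fold higher in EYFP cells (adjusted p = 0.015) and 2.6-fold higher in EGFP cells (0.018). The EYFP call was lost without EYFP replicate 1 (adjusted p = 0.076) or WT replicate 2 (0.074), and the EGFP call without EGFP replicate 1 (adjusted p = 0.083) or WT replicate 2 (0.086). Slc16a3, the lactate exporter of glycolytic cells, had 5.36 and 6.14 CPM in EYFP cells, 2.77 and 7.95 CPM in EGFP cells, and 28.7 and 63.8 CPM in WT epithelium, and its log2 fold change against WT was -3.01 ± 0.56 in EYFP cells and -3.07 ± 0.57 in EGFP cells (adjusted p = 0.0042 and 0.0067). Slc38a1 and Slc38a2, sodium-coupled glutamine and alanine carriers chosen after their values were seen, differed from each other. Slc38a1 had 187 and 142 CPM in EYFP cells, 131 and 109 CPM in EGFP cells, and 59.1 and 65.2 CPM in WT epithelium, higher against WT in EYFP cells (1.40 ± 0.18, adjusted p = 0.00033) and in EGFP cells (0.95 ± 0.18, adjusted p = 0.004). Slc38a2 had 115 and 182 CPM in EYFP cells, 173 and 125 CPM in EGFP cells, and 312 and 119 CPM in WT epithelium, and passed in no comparison.

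**Figure D4:**
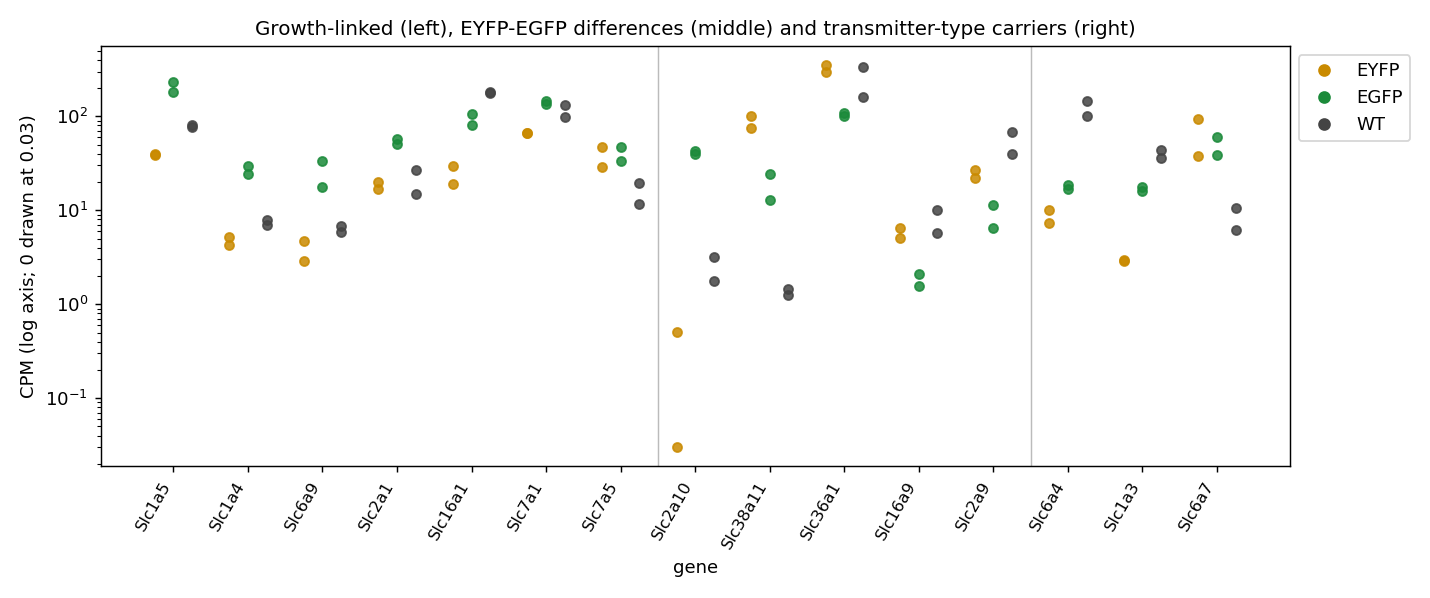
CPM (log axis, with 0 drawn at 0.03) of growth-linked carriers (left), carriers that differ between EYFP and EGFP cells (middle) and transmitter-type carriers (right); each point is 1 library, with EYFP, EGFP and WT from left to right for each gene. Slc1a5, Slc1a4, Slc6a9 and Slc2a1 are highest in EGFP cells, and Slc38a11 is highest in EYFP cells.

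The same libraries differed in markers of dividing and secretory cells. Markers of stem and dividing cells summed to 783 and 859 CPM in EYFP cells, 2321 and 1946 CPM in EGFP cells, and 2715 and 1814 CPM in WT epithelium, with 8 of 10 lower in EYFP than in EGFP cells. Goblet markers summed to 708 and 1851 CPM in EYFP cells, 64962 and 104536 CPM in EGFP cells, and 5710 and 7601 CPM in WT epithelium, with 9 of 9 lower in EYFP than in EGFP cells. Paneth markers summed to 616 and 205 CPM in EYFP cells, 7050 and 7830 in EGFP cells, and 5976 and 7679 in WT epithelium, with 8 of 9 lower in EYFP than in EGFP cells. Tuft markers summed to 6.41 and 15.1 CPM in EYFP cells, 224 and 132 in EGFP cells, and 25.7 and 118 in WT epithelium, and their members Gnat3 and Gng13 were at 0 in EYFP cells. No goblet, Paneth or stem marker was at 0 in both libraries of a group. Stroma, vessel and muscle markers summed to 1743 and 904 CPM in EYFP cells, 186 and 178 in EGFP cells, and 14.3 and 41.5 in WT epithelium. Vim alone gave most of the sum in the sorted groups, with 1721 and 884 CPM in EYFP cells and 168 and 173 in EGFP cells. Of 6 tested markers 3 were higher in EYFP than in EGFP cells. Col1a1, Col1a2 and Col3a1 did not pass and had negative log2 fold changes (-1.47, -0.82 and -1.04). Acta2 was at 0 in EYFP cells and Des at 0 in EGFP cells. Immune markers summed to 271 and 35.7 CPM in EYFP cells, 467 and 369 in EGFP cells, and 2271 and 681 in WT epithelium, with 7 of 9 tested lower against WT in each sorted group. The part of these cell types in the transporter differences was not tested.

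Genes that act beside the carriers were split. For comparison with these lists, 16.8% of all genes rose and 19.4% fell in EYFP over EGFP cells. Against WT 27.1% rose and 33.5% fell in EYFP cells, and 19.6% rose and 21.9% fell in EGFP cells. In the list of amino acid shortage response and mTORC1 sensing genes, 13 of 15 were tested, of which 1 rose and 4 fell in EYFP over EGFP cells, 4 rose and 4 fell in EYFP cells against WT, and 3 rose and 2 fell in EGFP cells against WT. Chac1, an enzyme that degrades glutathione in the shortage response, had 0.564 and 0.925 CPM in EYFP cells, 19.7 and 2.87 CPM in EGFP cells, and 1.17 and 0.663 CPM in WT epithelium. Its value rested on EGFP replicate 1, with a log2 fold change of -3.90 ± 0.99 in EYFP over EGFP cells (adjusted p = 0.025) and -1.89 without that library (0.12), and 3.62 ± 0.96 in EGFP cells against WT (0.024) and 1.76 without it (0.11). The Chac1 call between EYFP and EGFP cells was also lost without EYFP replicate 1 (0.14) or EYFP replicate 2 (0.1), with no filter on low counts (0.062) and in a fit of the 4 libraries alone (0.051). The Chac1 call of EGFP cells against WT was also lost without WT replicate 1 (0.087) or WT replicate 2 (0.15), and with no filter on low counts (0.064). Rragd, a GTPase of the mTORC1 amino acid pathway, had 15.9 and 20.3 CPM in EYFP cells, 34.1 and 43.3 CPM in EGFP cells, and 141 and 154 CPM in WT epithelium (-3.03 ± 0.19 in EYFP cells against WT, adjusted p = 1.3e-05).

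In the sugar metabolism list of 16 genes, 2 rose and 3 fell in EYFP over EGFP cells, 4 rose and 9 fell in EYFP cells against WT, and 3 rose and 9 fell in EGFP cells against WT. G6pc, which releases free glucose, had 0.987 and 3.2 CPM in EYFP cells, 1.69 and 1.35 CPM in EGFP cells, and 73.2 and 119 CPM in WT epithelium (-5.99 ± 0.54 in EGFP cells against WT, adjusted p = 0.00037).

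Of 12 genes that set the sodium gradient or partner the carriers, 2 rose and 1 fell in EYFP over EGFP cells, 4 rose and 8 fell in EYFP cells against WT, and 3 rose and 7 fell in EGFP cells against WT. Tmem27, the renal partner of Slc6a19, was named after its values were seen and had 5.07 and 17.8 CPM in EYFP cells, 4.46 and 7.36 CPM in EGFP cells, and 0.25 and 0.181 CPM in WT epithelium. It rose by 5.69 ± 0.82 in EYFP cells and rose by 4.76 ± 0.84 in EGFP cells against WT (adjusted p = 0.00092 and 0.0038), the second lost without WT replicate 2 (0.051). Emb, a membrane partner of monocarboxylate carriers, had 29.8 and 44.9 CPM in EYFP cells, 9.77 and 8.2 CPM in EGFP cells, and 5.16 and 3.98 CPM in WT epithelium, and rose by 2.06 ± 0.27 in EYFP over EGFP cells (adjusted p = 0.0013).

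Among carriers with no place in the role lists, 17 of 30 were tested; 5 rose and 2 fell in EYFP over EGFP cells, 5 rose and 6 fell in EYFP cells against WT, and 6 rose and 5 fell in EGFP cells against WT. Over all genes 16.8% rose and 19.4% fell in EYFP over EGFP cells. Against WT 27.1% of all genes rose and 33.5% fell in EYFP cells, and 19.6% rose and 21.9% fell in EGFP cells. The carriers outside the role lists held the largest passing log2 fold change of EYFP over EGFP cells in each direction. The 4 upstream windows below are shown because they belong to the genes with the largest EYFP over EGFP changes in each direction, to the brush border gene that rose, and to the main glucose carrier. Each gives the 250 bases before the annotated start, 5′ to 3′ on the gene's strand, from RefSeq on GRCm38.p6. Capitals mark matches to 4 short motifs searched on both strands, chosen after the sequences were seen: CAGATG, the E-box form that Neurog3-type factors bind, CACGTG, the E-box of Myc and TFE factors, TGATGNAA, the amino acid response element, and GTTAAT, an HNF1 half-site.
Slc38a11, chr2:65364027-65364276, minus strand: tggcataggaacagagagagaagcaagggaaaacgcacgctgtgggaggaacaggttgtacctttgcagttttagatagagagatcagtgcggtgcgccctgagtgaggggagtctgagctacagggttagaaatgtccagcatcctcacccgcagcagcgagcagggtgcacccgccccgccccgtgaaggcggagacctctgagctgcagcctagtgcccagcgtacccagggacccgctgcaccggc
Slc2a10, chr2:165503647-165503896, plus strand: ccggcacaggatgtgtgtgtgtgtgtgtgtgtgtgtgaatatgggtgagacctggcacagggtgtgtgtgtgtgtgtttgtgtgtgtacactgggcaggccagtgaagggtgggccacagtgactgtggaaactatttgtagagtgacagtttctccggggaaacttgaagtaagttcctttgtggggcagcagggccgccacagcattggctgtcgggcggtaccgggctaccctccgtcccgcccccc
Slc36a1, chr11:55204090-55204339, plus strand: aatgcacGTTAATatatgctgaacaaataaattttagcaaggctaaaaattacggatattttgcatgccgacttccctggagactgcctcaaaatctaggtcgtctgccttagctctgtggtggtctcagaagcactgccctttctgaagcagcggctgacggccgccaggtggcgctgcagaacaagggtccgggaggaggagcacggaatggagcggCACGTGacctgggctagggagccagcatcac
Slc5a1, chr5:33103969-33104218, plus strand: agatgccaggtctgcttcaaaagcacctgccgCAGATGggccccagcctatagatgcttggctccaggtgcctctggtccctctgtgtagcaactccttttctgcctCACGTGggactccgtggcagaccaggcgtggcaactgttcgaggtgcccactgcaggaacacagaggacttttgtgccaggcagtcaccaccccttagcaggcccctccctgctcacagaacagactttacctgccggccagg
The windows of Slc38a11 and Slc2a10 held none of the 4 motifs, that of Slc36a1 held CACGTG and GTTAAT, and that of Slc5a1 held CAGATG and CACGTG. Among 32536 promoter windows of this length, 14.4% held CAGATG, 6.04% CACGTG, 3.4% TGATGNAA and 6.47% GTTAAT. Among the 95 windows found for 72 of the 101 transporter genes the shares were 20%, 11.6%, 3.16% and 6.32%. A match describes letters in the window and not a bound site.

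Slc2a10, a facilitative sugar carrier at chr2:165503897-165519917, had 0 and 0.509 CPM in EYFP cells, 42.9 and 39.9 CPM in EGFP cells, and 1.76 and 3.2 CPM in WT epithelium. EGFP cells were far above all other libraries, and EYFP cells were below WT. Its log2 fold change was -7.41 ± 0.70 in EYFP over EGFP cells (adjusted p = 0.00072), -3.38 ± 0.79 in EYFP cells against WT (0.0094) and 4.03 ± 0.52 in EGFP cells against WT (0.0012). Without EYFP replicate 2 no EYFP count was left, and Slc2a10 was then at least 195-fold lower than in EGFP cells and at least 12.3-fold lower than in WT, taking 3 counts over the group as the floor. Slc38a11, an amino acid carrier of the sodium-coupled Slc38 family whose substrate is not settled, had 100 and 75.8 CPM in EYFP cells, 12.9 and 24.4 CPM in EGFP cells, and 1.25 and 1.45 CPM in WT epithelium. The groups formed 3 steps, highest in EYFP cells. It was 4.68-fold higher in EYFP than in EGFP cells (2.23 ± 0.30, adjusted p = 0.002), 64.4-fold higher in EYFP cells than in WT (6.01 ± 0.39, 2.2e-05) and 13.8-fold higher in EGFP cells than in WT (3.78 ± 0.38, 0.00031). Slc7a15, an amino acid carrier of the Slc7 family, had 0.916 and 2.36 CPM in EYFP cells, 2.89 and 3.05 CPM in EGFP cells, and 73 and 228 CPM in WT epithelium, and fell by 6.55 ± 0.79 in EYFP cells and fell by 5.66 ± 0.75 in EGFP cells against WT (adjusted p = 0.0013 and 0.0032).

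Further carriers that rose in EYFP over EGFP cells are named after their values were seen. Slc2a9, a urate carrier, had 27 and 22.2 CPM in EYFP cells, 6.51 and 11.3 CPM in EGFP cells, and 39.3 and 67.8 CPM in WT epithelium, and rose by 1.45 ± 0.35 over EGFP cells (adjusted p = 0.019), lost without EYFP replicate 1 (0.084) or EGFP replicate 1 (0.072). Slc16a9, a carnitine carrier, had 5.07 and 6.48 CPM in EYFP cells, 1.57 and 2.11 CPM in EGFP cells, and 10.1 and 5.73 CPM in WT epithelium, and rose by 1.63 ± 0.41 (0.018), lost without EYFP replicate 2 (0.083), EGFP replicate 1 (0.11) or EGFP replicate 2 (0.053). Slc16a11, a monocarboxylate carrier, rose by 0.94 ± 0.29 (adjusted p = 0.039), a call lost without any 1 of the 4 libraries. Slc15a2, a peptide carrier, had 26.2 and 1.6 CPM in EYFP cells, 6.51 and 0.254 CPM in EGFP cells, and 9.08 and 4.16 CPM in WT epithelium, so that libraries of 1 group stood as far apart as the groups, and it passed in no comparison.

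**Figure D5:**
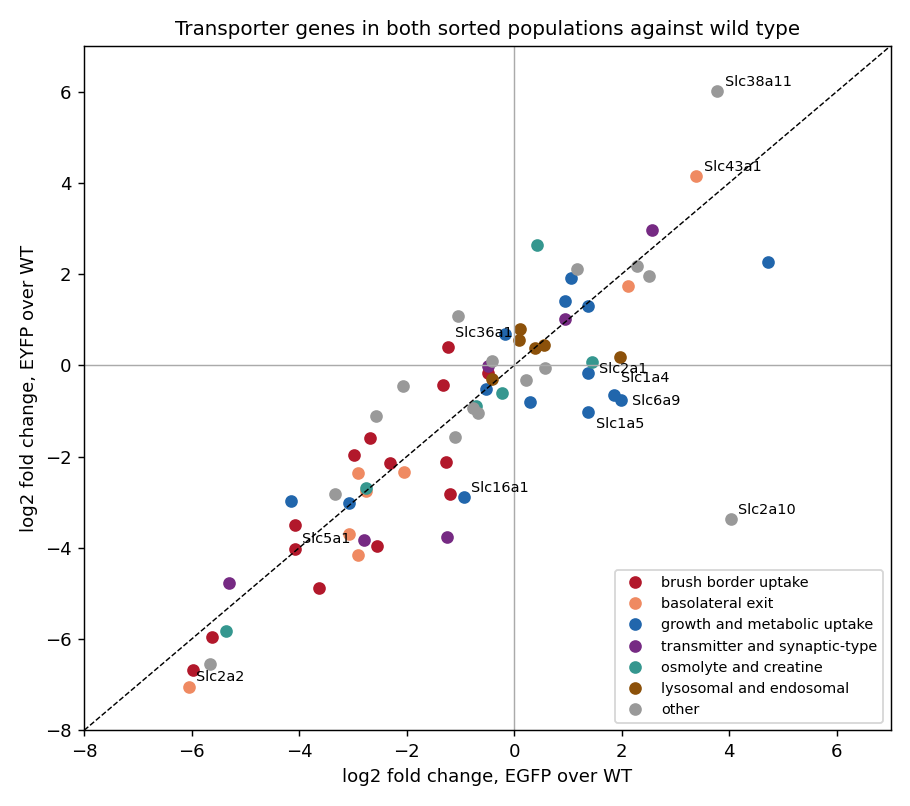
Log2 fold change against WT of 70 of the 72 tested transporter genes in EYFP cells (vertical axis) and EGFP cells (horizontal axis), coloured by role; both axes share the WT libraries, and the dashed line marks equal change. Slc38a11 lies above the line, and Slc2a10, Slc1a5, Slc1a4 and Slc6a9 lie below it with positive values in EGFP cells.

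Of 18 transmitter and synaptic-type carriers only 7 passed the filter. In EYFP over EGFP cells 3 of these fell and none rose, where 19.4% of all genes fell and 16.8% rose. Against WT 1 rose and 3 fell in EYFP cells, where 27.1% of all genes rose and 33.5% fell. In EGFP cells 2 rose and 3 fell against WT, where 19.6% of all genes rose and 21.9% fell. Slc6a4, the serotonin carrier, had 7.4 and 10.2 CPM in EYFP cells, 16.9 and 18.7 CPM in EGFP cells, and 101 and 146 CPM in WT epithelium. Both sorted groups were well below WT, with log2 fold changes of -3.82 ± 0.25 in EYFP cells and -2.80 ± 0.23 in EGFP cells (adjusted p = 1.5e-05 and 0.00011). The EYFP over EGFP value of -1.02 ± 0.24 passed (adjusted p = 0.014) but was lost without EYFP replicate 1 (0.086), EGFP replicate 1 (0.061) or EGFP replicate 2 (0.07). Slc1a3, a glutamate carrier of glia, had 2.96 and 2.86 CPM in EYFP cells, 17.6 and 16 CPM in EGFP cells, and 43.7 and 36 CPM in WT epithelium, in 3 steps without overlap. It fell by 2.52 ± 0.21 in EYFP over EGFP cells (adjusted p = 0.0003), fell by 3.77 ± 0.21 in EYFP cells against WT (8.8e-06) and fell by 1.25 ± 0.19 in EGFP cells against WT (0.0013).

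Slc6a7, the proline carrier known from brain synapses, was higher in the sorted groups, with 38.1 and 93 CPM in EYFP cells, 38.8 and 60.4 CPM in EGFP cells, and 6.16 and 10.5 CPM in WT epithelium. It rose by 2.96 ± 0.53 in EYFP cells and rose by 2.56 ± 0.53 in EGFP cells against WT (adjusted p = 0.0044 and 0.012), the second lost without EGFP replicate 2 (0.056), WT replicate 1 (0.076) or WT replicate 2 (0.05), and with no filter on low counts (0.072). Neuron and glia markers summed to 131 and 135 CPM in EYFP cells, 30.2 and 50.4 in EGFP cells, and 4.25 and 3.86 in WT epithelium. Of the 6 markers 3 were tested, 2 were higher in EYFP than in EGFP cells, and Sox10 was at 0 in every library. The part of neurons or glia in the Slc6a7 and Slc1a3 values was not tested.

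Osmolyte and creatine carriers did not differ between the sorted groups by the test, with none of 6 past the threshold in EYFP over EGFP cells. Of all genes 36.2% passed in that comparison. Against WT 1 carrier rose and 3 fell in EYFP cells, and none rose and 3 fell in EGFP cells. Over all genes 27.1% rose and 33.5% fell in EYFP cells, and 19.6% rose and 21.9% fell in EGFP cells. Slc5a11, a sodium-coupled inositol carrier, had 2.4 and 4.88 CPM in EYFP cells, 3.98 and 5.83 CPM in EGFP cells, and 141 and 268 CPM in WT epithelium (-5.83 ± 0.49 and -5.36 ± 0.48 in EYFP and EGFP cells against WT, adjusted p = 0.00015 and 0.0004). Slc6a8, the creatine carrier on the X chromosome, had 78.4 and 92.1 CPM in EYFP cells, 77.8 and 84.3 CPM in EGFP cells, and 335 and 756 CPM in WT epithelium. It fell by 2.68 ± 0.38 in EYFP cells and fell by 2.75 ± 0.38 in EGFP cells against WT (adjusted p = 0.0012 and 0.0019).

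Lysosomal and endosomal carriers varied least between groups in their summed level, at 76.4 and 80.8 CPM in EYFP cells, 67.1 and 74.9 in EGFP cells, and 58.5 and 70.3 in WT epithelium. Of 8 genes 6 were tested. In EYFP over EGFP cells 1 fell, where 19.4% of all genes did. None passed in EYFP cells against WT, where 60.6% of all genes did. In EGFP cells against WT 2 rose, where 19.6% of all genes did. Slc38a9, the lysosomal arginine sensor of mTORC1, had 14.3 and 18.7 CPM in EYFP cells, 11 and 12.7 CPM in EGFP cells, and 10.2 and 12.2 CPM in WT epithelium. Its log2 fold change was 0.47 ± 0.23 in EYFP over EGFP cells, 0.55 ± 0.23 in EYFP cells against WT and 0.08 ± 0.23 in EGFP cells against WT (adjusted p = 0.15, 0.068 and 0.82), and the EYFP over WT value was 0.67 and past the threshold with DESeq2's size factors (0.037). Slc15a4, which exports histidine and peptides from lysosomes, had 20.8 and 19.4 CPM in EYFP cells, 21.7 and 21.6 CPM in EGFP cells, and 14.1 and 15.4 CPM in WT epithelium. Its rise of 0.55 ± 0.17 in EGFP cells against WT (adjusted p = 0.037) was lost without any single library (0.061 to 0.13) and with no filter on low counts (0.059).

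Per kilobase of mean annotated transcript, the order of levels among the 72 tested genes differed between groups. Slc36a1 ranked first in both EYFP libraries, at 66.9 and 56.2 CPM per kb. By the mean of both EYFP libraries it was followed by Slc38a11 at 62.4 and 47.1, Slc3a2 at 43.6 and 40.6, and Slc6a19 at 30.8 and 48.6. The values of Slc36a1 and Slc38a11 overlapped, as did those of Slc38a11 and Slc6a19 and those of Slc3a2 and Slc6a19. Slc1a5 ranked first in both EGFP libraries, at 83.2 and 66.3 CPM per kb, ahead of Slc3a2 at 54.3 and 47.1 and Slc38a10, a less studied member of its family, at 52.4 and 52.9, and the values of Slc3a2 and Slc38a10 overlapped. Slc5a1 ranked first in both WT libraries, at 294 and 851 CPM per kb, followed by Slc3a2 at 182 and 242. The mean of the annotated transcript lengths stands in for the isoform present, which is not known here.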

How the data were processed

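The authors deposited estimated counts for each gene, in which reads that fit several genes are shared out as fractions. RSEM 1.3.1 and DESeq2 1.26.0, Bowtie2, FastQC 0.11.8 and the mm10 build are named in the submitters' processing notes. Per the labels' protocols, RNA was extracted with RNeasy Micro columns, and TruSeq libraries were read as single ends of 50 bases. The sources used here do not give tool settings or strand.

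Counts were rounded and tested with edgeR 4.0.16 in R 4.3.3 (TMM scaling, filterByExpr, robust quasi-likelihood F test, 1 model of 3 group means over 6 libraries). Of 23845 genes, 13935 (58.4%) passed the filter, with 3 residual degrees of freedom and a biological coefficient of variation of 19.8%. P-values were adjusted over all tested genes (Benjamini-Hochberg, threshold 0.05). SE is the log2 fold change divided by the square root of F. The test was checked on simulated counts. CPM per kb uses mean GENCODE transcript length. Floors (3 counts) cover counting error only. Estimated counts split between similar paralogs are uncertain.

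The genes and lists were chosen with earlier results of these data known. The text names 18 anchor genes, up to 2 genes per role and comparison with the largest passing change whose higher group reached 5 CPM in each library, and genes with opposite calls against WT; others are marked as chosen after their values were seen. Alternatives were DESeq2 1.42.0 size factors and Wald test, no filter, a minimum of 10 counts, scaling that ignored the 50 most abundant genes, only the 4 libraries compared, a replicate block and leaving out each library. The authors' deposited table of comparisons was not used here. Some genes are not reported here by name, and 2 of them are left out of the figures; counts and sums include them.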

Additional observations from a re-analysis of the deposited data

Results flagged for a closer look

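Slc1a4, Slc1a5 and Slc2a10 changed in opposite directions against WT in the sorted groups, lower in EYFP cells and higher in EGFP cells, and the difference between the groups passed edgeR's test. The log2 fold change of EYFP over EGFP cells was -2.50 for Slc1a4, -2.39 for Slc1a5 and -7.41 for Slc2a10. Both comparisons with WT share the WT libraries, and the call of Slc1a4 in EYFP cells against WT was lost without any single library. Groups of 2 libraries are too small to look for a library far from the others.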

How the results depend on the processing

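Among counts of transporter genes past the threshold, only leaving out 1 library moved a value by more than 1.5 times. In EYFP over EGFP cells the number of higher genes then ranged from 2 to 8 and the number of lower genes from 10 to 16. The fit without 1 library of a group assumes that the remaining library varies like those of the other groups. With DESeq2's size factors the median of all genes in EYFP over WT moved by 0.11, and 15 transporters were higher and 33 lower. With the replicate number as a block, the counts were 8 higher and 17 lower in EYFP over EGFP cells, 14 and 36 in EYFP cells against WT, and 20 and 33 in EGFP cells against WT. The numbers do not pair the samples: deviations of libraries with the same number correlated at 0.0224 between EYFP and EGFP, 0.0143 between EYFP and WT, and 0.0964 between EGFP and WT. Of 1287 alternative values of the named transporters, 51 lost the call and 23 gained it, and 1213 stayed on the same side of the threshold; 15 changed sign, and 0 of these passed the threshold in either fit; where a cause is not plain from fewer libraries, the cause was not tested. With 2 libraries a group, small differences cannot be resolved.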
